A study of Mus musculus with 6 samples.

Results

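Potassium channel genes that are not calcium-activated were followed in N1E115 cells, which come from a mouse neuroblastoma and resemble sympathetic neurons. The 86 members were all rows of the deposited gene table whose symbol begins with Kcn, leaving out the calcium-activated families that begin with Kcnn, Kcnma or Kcnmb. That left 86 of 95 Kcn rows and of 23358 gene rows in all. Cells were kept in 4% oxygen or, as the control, in 20% oxygen, both for 3 days, with 3 RNA libraries per oxygen level. The labels describe the cells in both groups as NOS1+, that is, positive for the neuronal nitric oxide synthase, and give no other treatment. N1E115 is a single tumour line grown in culture, and nothing in the labels tells whether the libraries were made from separate cultures. The p-values therefore reflect how far these libraries vary, and that variation may be technical.

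Potassium channels let potassium ions leave or enter a cell along their gradient, and so set the resting potential and end action potentials. Voltage-gated channels open on depolarisation, inward rectifiers of the Kcnj family pass current best near rest, and two-pore channels of the Kcnk family carry background leak current. Accessory subunits of the Kcnab, Kcne and Kcnip families bind the pore-forming subunits and alter their gating or their delivery to the membrane. In neuroblastoma cells the ether-a-go-go related channel encoded by Kcnh2 and the M-type current of Kcnq channels are well known contributors to excitability. In oxygen-sensing tissues such as the carotid body, leak channels including the product of Kcnk3 are known for closing when oxygen falls.

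Levels are given as CPM (a count as a share of its library, scaled by the TMM method of edgeR) for comparing libraries, and as the authors' deposited RPKM, which divides by gene length, for comparing genes. The libraries held 130915724, 163695286 and 145889456 counts in 4% oxygen and 129849604, 124259152 and 139216400 in 20% oxygen. Over the 14979 genes tested, the quasi-likelihood test of edgeR, adjusted by Benjamini-Hochberg, called 0 genes in either direction, and 451 were higher and 213 lower in 4% oxygen at an unadjusted p under 0.05. DESeq2 called 55 higher and 8 lower after adjustment, limma-voom called 0 in either direction, and edgeR blocked on replicate number gave 11 higher and 0 lower. The oxygen-responsive genes Slc2a1, Pdk1 and Egln3, included as a check of the labels, had log2 fold changes of 1.90, 2.43 and 2.23, each with an edgeR adjusted p of 0.112. Replicate 1 in 20% oxygen stood farthest from the others on the first principal component. Of the 14 sympathoadrenal markers checked, 12 were expressed, including Th, Dbh, Phox2a and Hand2, while Nefl and Nefm stayed under 1 CPM. These markers summed to 5438 to 6642 CPM in 4% oxygen and 3689 to 3981 CPM in 20% oxygen. At an unadjusted edgeR p under 0.05, 5 of the 14 were higher in 4% oxygen, beside 3.01% of all genes tested. The Schwann or glial markers summed to 1.64 to 1.93 CPM in 4% oxygen and 2.16 to 2.93 CPM in 20% oxygen, and 1 of the 5 was expressed. The immune markers Ptprc and Cd68 summed to 0.654 to 1.25 CPM in 4% oxygen and 0.314 to 1.88 CPM in 20% oxygen, with 0 of 2 expressed. The endothelial markers Pecam1 and Cdh5 summed to 4.16 to 5.95 CPM in 4% oxygen and 1.72 to 9.66 CPM in 20% oxygen, with Pecam1 expressed and Cdh5 at 0 or close to it. The mesenchymal markers summed to 7.21 to 17.4 CPM in 4% oxygen and 4.28 to 34.5 CPM in 20% oxygen, with 2 of 4, Col1a1 and Pdgfrb, expressed. The highest of these sums belonged to 20% oxygen replicate 1, where Pdgfrb reached 24.5 CPM, against 1.47 and 3.32 CPM in the other libraries of that group. The part of these transcripts in the results below was not tested.

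A member was counted as expressed when it reached 1 CPM or more in at least 3 of the 6 libraries. By that rule 30 of the 86 members (34.9%) were expressed, against 51.9% of all genes in the table. By class these were 13 of 40 voltage-gated pore-forming subunits, 4 of 15 inward rectifiers, 5 of 14 two-pore channels, 5 of 13 accessory subunits and 2 of 3 channels gated by sodium or pH. The last of the 30 was Kcnq1ot1, a long noncoding RNA whose symbol meets the rule although it encodes no channel. At the other end 15 members had no count in any library. A floor of 3 counts of the total, for counting error only, is 0.0183 to 0.0241 CPM per library. The deposited counts are all even numbers, so a fragment may enter more than once and the true bound may lie higher. Just inside the threshold lay Kcns2, Kcnj14 and Kcnk6, each with 3 libraries at 1 CPM or more. Members just outside it included Kcnh3, Kcnh7 and Kcnj6, each with 1 such library. The count was 36 at a threshold of 0.5 CPM and 21 at 2 CPM.

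Expression was concentrated in few genes. Per length, Kcnh2 held 23.5% of the summed RPKM of the 29 expressed protein-coding members, and the 6 most abundant, which include Kcnj12, Kcnab2, Kcnab1 and Kcnk3, held 68.5%. Kcnh2 had a mean of 13.6 ± 1.25 RPKM in 4% oxygen and 10.4 ± 2.01 RPKM in 20% oxygen (SD, n = 3). Next came Kcnj12 at 7.58 ± 3.03 RPKM in 4% oxygen and 6.52 ± 3.14 RPKM in 20% oxygen (SD, n = 3). Kcnh2 lay above Kcnj12 in each of the 6 libraries, whereas Kcnj12, Kcnab2 and Kcnab1 overlapped in their spread. At the lower end Kcnh1, Kcns2, Kcnc1 and Kcna4 had means of 0.110 to 0.184 RPKM over the 6 libraries.

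**Figure D1:**
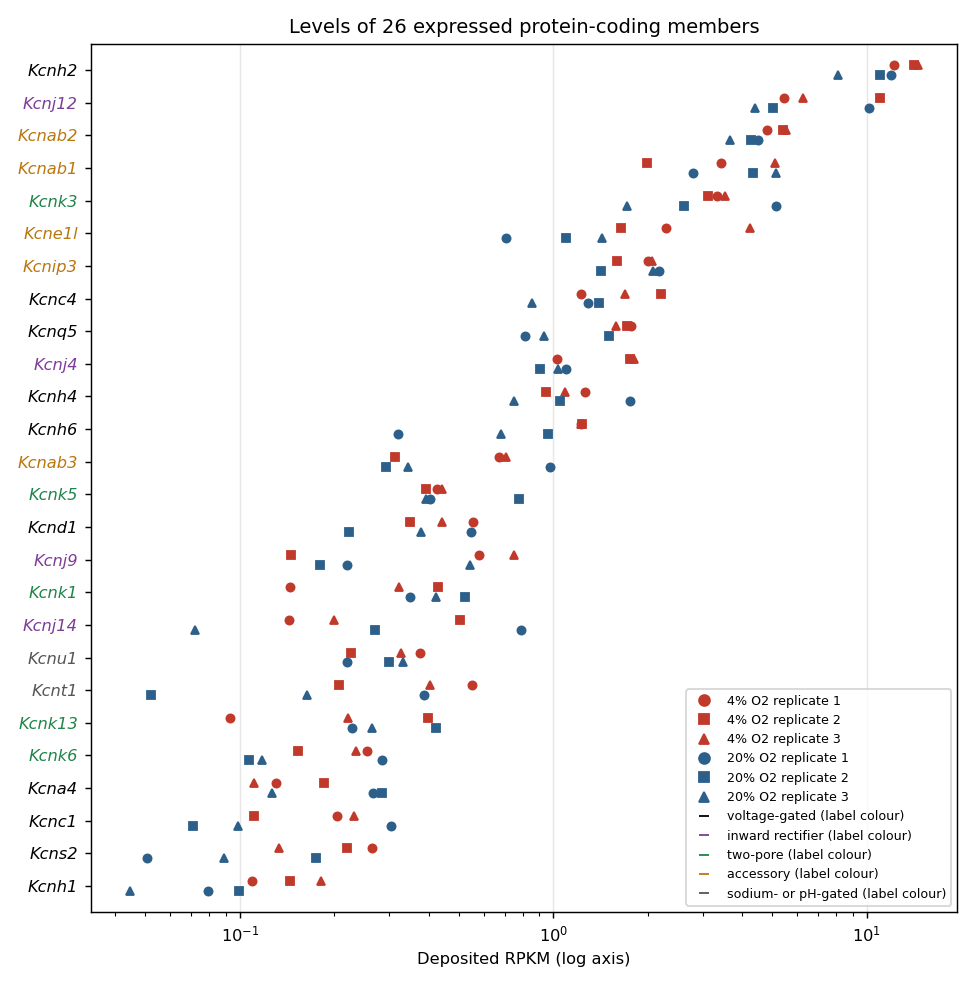
Deposited RPKM (log axis) of 26 of the 29 expressed protein-coding members, ordered by their mean over 6 libraries, with each point a library (4% oxygen red, 20% oxygen blue, replicate by symbol) and label colour giving the class. Kcnh2 lies highest, at a mean of 13.6 RPKM in 4% oxygen and 10.4 RPKM in 20% oxygen, and most genes below Kcnj4 lie under 1 RPKM.

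No member passed the adjusted threshold between the oxygen levels. The edgeR fit on the whole table, with Benjamini-Hochberg adjustment over all genes, called 0 of the 45 tested members higher and 0 lower, beside a background of 0% of all genes in each direction. At an unadjusted p under 0.05, 3 members (6.67%) were higher in 4% oxygen, Kcne1l among them, beside 3.01% of all genes tested. In the other direction 0 members were lower, beside 1.42% of all genes. With the replicate number as a block the fit gave 8 higher at an unadjusted p under 0.05 (17.8%), beside 6.01% of all genes, and 0 lower, beside 2.86%. Those 8 included Kcne1l, Kcnt1, Kcnh6, Kcnq5 and Kcnh1, and with adjustment the blocked edgeR fit called 0 members, beside 0.0734% of all genes called higher.

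The other fits gave the same adjusted count of 0 members. DESeq2 had 6 of 71 members higher at an unadjusted p under 0.05 (8.45%), beside 2.74% of all genes, and 0 lower, beside 1.91%. Its adjusted calls were 0.383% of all genes higher and 0.0557% lower. With limma-voom 5 of 45 members were higher (11.1%), beside 3.36% of all genes, and 0 lower, beside 1.3%. With no filter on low counts 4 of 71 were higher, beside 2.79% of all genes, and 0 lower, beside 1.43%, and the adjusted calls were 0.133% of all genes higher and 0.0107% lower. Without replicate 1 in 20% oxygen 4 of 46 were higher, Kcnt1, Kcne1l and Kcnk3 among them, beside 5.79% of all genes, and 0 lower, beside 3.01%. Without replicate 2 in 20% oxygen 7 of 46 were higher, beside 2.61% of all genes, and without replicate 3 in 4% oxygen 1 of 45 was higher, beside 1.49%. Without replicate 3 in 20% oxygen 1 of 46 was lower, Kcnd3, beside 2.26%.

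The voltage-gated class held most of the members whose libraries separated by oxygen. In 7 of the 45 tested members (15.6%) the 3 libraries in 4% oxygen all lay above the 3 in 20% oxygen, beside 6.33% of all genes tested. In 0 members they all lay below, beside 3.72% of all genes. The 7 were 6 of the 19 tested voltage-gated members, with Kcnh2, Kcnq5, Kcnh6 and Kcnh1 among them, and the accessory subunit gene Kcnab2. The filter for testing let in 15 members under the expression threshold, and a member kept for its level in a single group is more likely to separate. All of the 7 were expressed, but Kcnh1 met that rule through its 3 libraries in 4% oxygen. It had 0.915, 1.07 and 0.555 CPM in 20% oxygen, while the others reached 1 CPM in each of the 6 libraries. In CPM with no scaling factor 10 of the 45 lay above, beside 7.94% of all genes, and 0 below, beside 2.48%. In bulk RNA such a difference can come from the number of cells holding a transcript or from its level per cell, which cannot be told apart here.

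**Figure D2:**
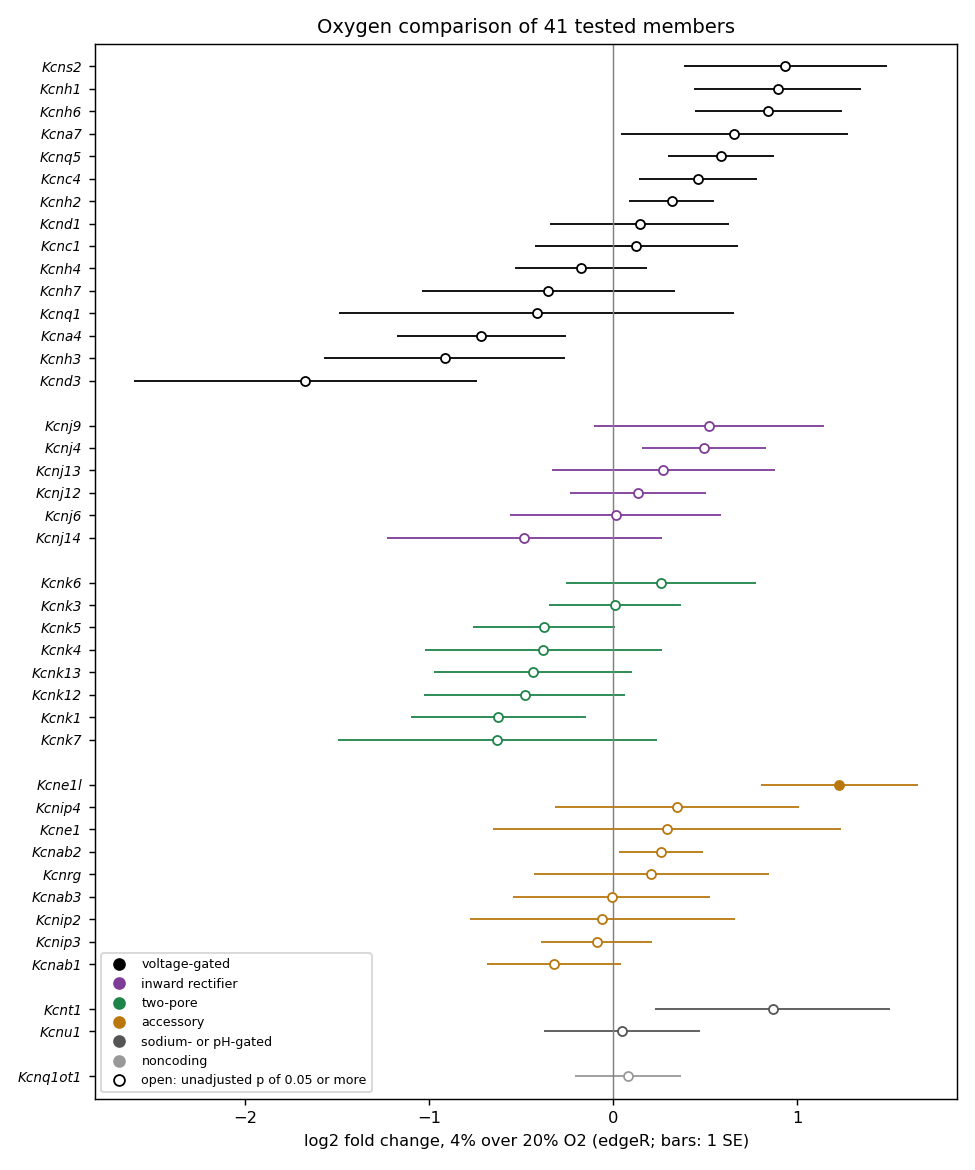
Log2 fold change of 4% over 20% oxygen from edgeR for 41 of the 45 tested members, by class, with bars of 1 standard error; the filled point had an unadjusted p under 0.05. The filled point is Kcne1l (1.23), and the bars of most other members reach close to or across 0.

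The Kcnq family forms the M-type channels, which open slowly near threshold and are closed by muscarinic receptors. Kcnq5 (chromosome 1, 21398403 to 21961942 in mm10, the build of all gene positions here), an M-type subunit, had 20.4, 18.2 and 16.0 CPM in 4% oxygen, against 9.17, 15.9 and 11.3 CPM in 20% oxygen, for a log2 fold change of 0.59 (SE 0.29). The groups did not overlap, but replicate 3 in 4% oxygen (16.0 CPM) and replicate 2 in 20% oxygen (15.9 CPM) nearly met, and the log2 ratio within a number was 1.15, 0.20 and 0.50 for replicates 1, 2 and 3. Kcnq3, an M-type subunit of brain, was near absent, with 6 counts in 1 of the 6 libraries and 0 in the rest. Kcnq1, the cardiac and epithelial member, stayed below the expression threshold at 0.0900 ± 0.0268 CPM in 4% oxygen and 0.120 ± 0.105 CPM in 20% oxygen (SD, n = 3).

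The ether-a-go-go family, Kcnh, had 4 expressed members of 8. Kcnh2, which encodes the channel of the rapid delayed rectifier in heart (chromosome 5, 24319589 to 24351604), had 85.0, 90.3 and 88.6 CPM in 4% oxygen, against 81.5, 70.5 and 59.5 CPM in 20% oxygen. The groups stood apart by a small step between the lowest library in 4% oxygen and the highest in 20% oxygen, and the log2 fold change was 0.32 (SE 0.23; edgeR adjusted p = 0.996). Kcnh6, a second channel of the same ether-a-go-go related branch, had 5.77, 5.36 and 5.04 CPM in 4% oxygen, against 1.47, 4.16 and 3.38 CPM in 20% oxygen, for a log2 fold change of 0.84 (SE 0.40). Its low value in replicate 1 in 20% oxygen widened the difference, and without that library the log2 fold change was 0.51. Kcnh1, a founding ether-a-go-go channel, had 1.29, 1.56 and 1.87 CPM in 4% oxygen, against 0.915, 1.07 and 0.555 CPM in 20% oxygen, for a log2 fold change of 0.89 (SE 0.45). Kcnh4 went without a consistent direction, at 7.88, 5.44 and 5.94 CPM in 4% oxygen, against 10.8, 6.01 and 4.95 CPM in 20% oxygen. Kcnh5 had 0 counts, and Kcnh3 and Kcnh7 were under the threshold, Kcnh3 with its single value above 1 CPM, 1.80 CPM, in replicate 1 in 20% oxygen.

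**Figure D3:**
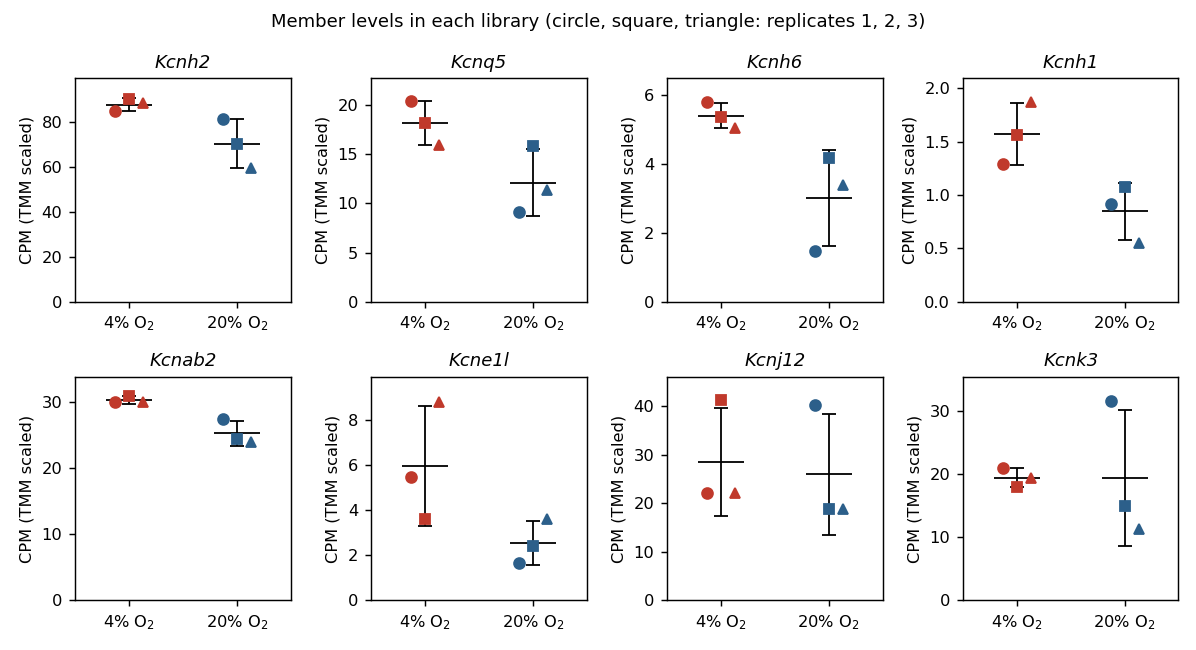
CPM (TMM scaled) of 8 members in each library, with the mean and SD of each group (n = 3) as black bars and the replicate number by symbol. The groups separate for Kcnh2, Kcnq5, Kcnh6, Kcnh1 and Kcnab2 and meet at 3.60 CPM for Kcne1l, while those of Kcnj12 overlap and the libraries of Kcnk3 in 4% oxygen (18 to 20.9 CPM) lie inside the range of those in 20% oxygen (11.4 to 31.7 CPM).

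The Shaw family, Kcnc, includes fast delayed rectifiers for short action potentials. Kcnc4 had 6.09, 10.1 and 7.37 CPM in 4% oxygen, against 6.27, 6.38 and 4.49 CPM in 20% oxygen, with overlapping groups and a log2 fold change of 0.46 (SE 0.32). Kcnc1 ranged from 1.59 to 3.18 CPM in 4% oxygen and from 1.01 to 4.61 CPM in 20% oxygen, and Kcnc2 had 2 counts in all.

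The Shaker and Shal families, which are among those that carry low-threshold and rapidly inactivating A-type currents in many neurons, were sparse. Of 8 Shaker genes (Kcna), 1 was expressed: Kcna4, an A-type subunit, at 1.04, 1.36 and 0.772 CPM in 4% oxygen, against 2.08, 2.08 and 1.07 CPM in 20% oxygen. Its groups overlapped, and its log2 fold change was -0.72 (SE 0.46; edgeR adjusted p = 0.996). Kcna2 had 12 counts over the 6 libraries, and Kcna3, Kcna5 and Kcna10 had 0. Of 3 Shal genes (Kcnd), Kcnd1 was expressed at 1.35 ± 0.386 CPM in 4% oxygen and 1.22 ± 0.534 CPM in 20% oxygen (SD, n = 3), while Kcnd2 had 0 counts. Kcnd3 had 0.0725, 0.112 and 0.0393 CPM in 4% oxygen, against 0.512, 0.165 and 0.0450 CPM in 20% oxygen. Its log2 fold change of -1.67 (SE 0.93), the lowest of the tested members, rested on replicate 1 in 20% oxygen and was -0.48 without that library.

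The silent voltage-gated subunits, which reach the membrane only as partners of other subunits, were mostly under the expression threshold. Among the 10 genes of the Kcnf, Kcng, Kcns and Kcnv families, 1 was expressed, Kcns2, at 1.90, 1.45 and 0.837 CPM in 4% oxygen, against 0.357, 1.16 and 0.675 CPM in 20% oxygen. Its groups overlapped, and its log2 fold change was 0.94 (SE 0.55; edgeR adjusted p = 0.996). Kcnf1, Kcng1, Kcng3 and Kcns3 had 0 counts, and the remaining 5 had 2 to 44 counts over the 6 libraries.

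Summed over its 13 expressed members, the voltage-gated class reached 227, 220 and 220 CPM in 4% oxygen, against 165, 170 and 140 CPM in 20% oxygen. The groups did not overlap, and the sum is given as a description without a test. In each library 4 leading members, Kcnh2 and Kcnq5 among them, held 82.2 to 86.1% of the sum. The other 9 summed to 32.3, 33.5 and 30.7 CPM in 4% oxygen, against 29.3, 26.3 and 20.4 CPM in 20% oxygen. Over the 19 tested voltage-gated members the median log2 fold change was 0.32, with 12 estimates above 0 and 7 below, beside a median of -0.03 over all genes tested.

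**Figure D4:**
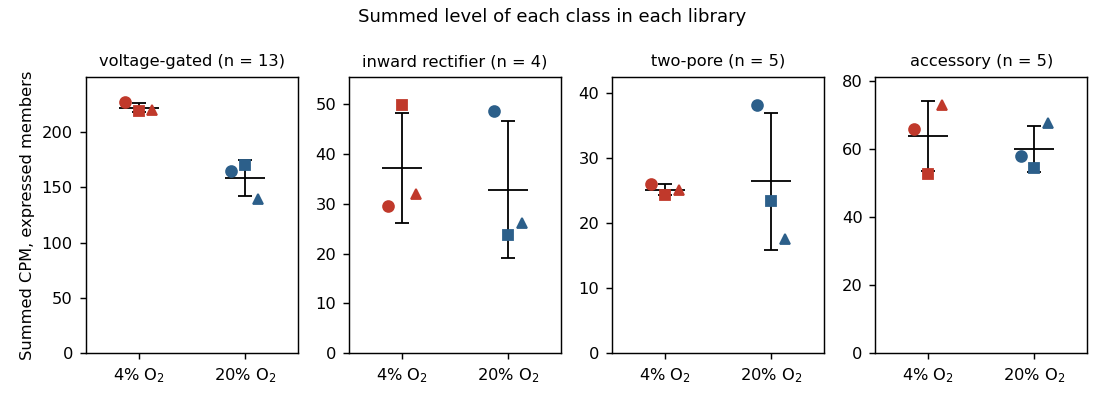
Summed CPM of the expressed members of 4 classes in each library, with the mean and SD of each group (n = 3) as black bars and the replicate number by symbol. The voltage-gated sums lie at 220 to 227 CPM in 4% oxygen and 140 to 170 CPM in 20% oxygen, most of each from 4 genes. In the other 3 classes the groups overlap.

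The inward rectifiers were carried by Kcnj12, a strong rectifier of the classical type that stabilises the resting potential. Kcnj12 (chromosome 11, 61065804 to 61071131) had 22.1, 41.3 and 22.2 CPM in 4% oxygen, against 40.3, 18.8 and 18.8 CPM in 20% oxygen. Each group had a single high library, replicate 2 in 4% oxygen and replicate 1 in 20% oxygen, and the log2 fold change was 0.14 (SE 0.37; edgeR adjusted p = 0.996). Kcnj4, of the same strong rectifier branch, had 3.64, 5.75 and 5.61 CPM in 4% oxygen, against 3.82, 2.96 and 3.89 CPM in 20% oxygen, for a log2 fold change of 0.49 (SE 0.34). Kcnj2, the strong rectifier of heart and skeletal muscle, had 0 counts. Kcnj14 ranged from 0.624 to 2.02 CPM in 4% oxygen and from 0.330 to 3.37 CPM in 20% oxygen. Over the 6 tested Kcnj members the median log2 fold change was 0.20, with 5 estimates above 0. That median was 0.62 without replicate 1 in 20% oxygen, 0.12 without replicate 2 and 0.068 without replicate 1 in 4% oxygen, 0.038 without replicate 3 in 20% oxygen and 0.027 without replicate 2 in 20% oxygen.

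Of the channel genes opened by G proteins, Kcnj9 alone passed the expression threshold, while those opened by low ATP were near absent. Kcnj9, a G protein-gated subunit, had 3.12, 0.725 and 3.52 CPM in 4% oxygen, against 1.16, 0.892 and 3.08 CPM in 20% oxygen, with overlapping groups. Its G protein-gated relatives Kcnj3 and Kcnj5 had 0 and 2 counts over all libraries, and Kcnj6 stayed under the threshold at 0.800 ± 0.252 CPM in 4% oxygen and 0.793 ± 0.503 CPM in 20% oxygen (SD, n = 3). Of the ATP-sensitive pore subunits, Kcnj8 had 0 counts and Kcnj11 had 10. Their sulfonylurea receptor partners Abcc8 and Abcc9 averaged 0.0173 ± 0.0201 and 0.0778 ± 0.0478 CPM in 4% oxygen, against 0.0150 ± 0.0260 and 0.0529 ± 0.0267 CPM in 20% oxygen (SD, n = 3).

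Among the two-pore channels Kcnk3, an acid-sensitive leak channel, led by a wide margin. Kcnk3 (chromosome 5, 30588170 to 30625270) had 20.9, 18 and 19.4 CPM in 4% oxygen, against 31.7, 15 and 11.4 CPM in 20% oxygen. The 4% oxygen libraries were close together and lay within the range of the 20% oxygen libraries. Its log2 fold change was 0.01 (SE 0.36; edgeR adjusted p = 0.998), and 0.56 without replicate 1 in 20% oxygen, where the unadjusted p was 0.0481 and the edgeR adjusted p 0.565. Kcnk9, its closest relative and heteromer partner, had 2 counts in all, and Kcnk2, a stretch- and heat-sensitive channel, had 8. Kcnk5, an alkaline-activated leak channel, had 2.36, 2 and 2.15 CPM in 4% oxygen, against 2.20, 3.95 and 2.30 CPM in 20% oxygen. Kcnk1 had 0.551, 1.5 and 1.07 CPM in 4% oxygen, against 1.30, 1.82 and 1.70 CPM in 20% oxygen. Kcnk13 had 0.479, 1.89 and 0.994 CPM in 4% oxygen, against 1.15, 1.98 and 1.43 CPM in 20% oxygen. For Kcnk1 and Kcnk13 each library in 4% oxygen was below the 20% oxygen library of its number, although the groups overlapped. The log2 fold changes were -0.62 (SE 0.48) and -0.44 (SE 0.54), with edgeR adjusted p-values of 0.996. For Kcnk1 it was -0.34 without replicate 1 and -0.98 without replicate 2 in 4% oxygen, and for Kcnk13 it was -0.10 and -1.04 without the same libraries and -0.20 without replicate 2 in 20% oxygen. Kcnk12, under the expression threshold, had 0.319, 0.762 and 0.484 CPM in 4% oxygen, against 0.807, 0.842 and 0.540 CPM in 20% oxygen. Over the 8 tested Kcnk members the median log2 fold change was -0.41, with 2 estimates above 0 and 6 below, and 0 had an unadjusted p under 0.05. That median was -0.17 without replicate 1 in 20% oxygen and -0.22 without replicate 1 in 4% oxygen, and reached -0.54 without replicate 3 in 20% oxygen.

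Accessory subunit genes were among the abundant members by RPKM, with Kcnab2, Kcnab1, Kcne1l and Kcnip3 all in the first 8. Kcnab2, a beta subunit of Shaker channels that resembles aldo-keto reductases (chromosome 4, 152390740 to 152477549), had 30.0, 31.0 and 30.0 CPM in 4% oxygen, against 27.5, 24.4 and 24.0 CPM in 20% oxygen. The groups separated by a small margin, and the log2 fold change was 0.26 (SE 0.23; edgeR adjusted p = 0.996). Kcnab1, a related beta subunit, had 16.8, 9.05 and 21.9 CPM in 4% oxygen, against 13.4, 19.5 and 26.7 CPM in 20% oxygen, and Kcnab3 ranged from 1.20 to 2.81 CPM in 4% oxygen and from 1.12 to 3.99 CPM in 20% oxygen. So the 3 beta subunit genes were expressed while, of the Shaker pore subunits they bind, Kcna4 alone passed the threshold. Kcnip3, a calcium-binding partner of Shal channels that also acts as a transcriptional repressor, averaged 9.36 ± 1.41 CPM in 4% oxygen and 9.97 ± 2.63 CPM in 20% oxygen (SD, n = 3). Dpp6, another Shal partner, averaged 25.8 ± 5.06 CPM in 4% oxygen and 12.9 ± 5.37 CPM in 20% oxygen (SD, n = 3), and its log2 fold change was 1.0 (SE 0.34), the edgeR adjusted p being 0.963.

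Kcne1l, now also named Kcne5, encodes a small single-pass subunit known to inhibit Kcnq1 channels (chromosome X, 142304753 to 142306198). It had 5.47, 3.60 and 8.84 CPM in 4% oxygen, against 1.64, 2.40 and 3.60 CPM in 20% oxygen. The lowest library in 4% oxygen met the highest in 20% oxygen, while within each replicate number the 4% oxygen library was the higher. Its log2 fold change was the highest of the tested members at 1.23 (SE 0.43), and the edgeR p was 0.0148 unadjusted and 0.996 adjusted, or 0.224 with the replicate block. The other Kcne genes, Kcne1 to Kcne4, had 8 to 96 counts in all.

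Of the channels opened by sodium or by alkaline pH, Kcnt1, a sodium-activated channel, had 5.53, 1.92 and 3.56 CPM in 4% oxygen, against 3.82, 0.479 and 1.74 CPM in 20% oxygen. The values followed the replicate number as much as the oxygen level, and the log2 ratios within a number were 0.53, 2.01 and 1.03. The log2 fold change was 0.87 (SE 0.64), with an unadjusted edgeR p of 0.201 without the replicate block and 0.00719 with it (adjusted p = 0.35 with the block). It was 1.72 without replicate 1 in 20% oxygen, 0.40 without replicate 2 in 20% oxygen and 0.43 without replicate 1 in 4% oxygen. Kcnu1, known as a channel of sperm, averaged 1.69 ± 0.490 CPM in 4% oxygen and 1.63 ± 0.393 CPM in 20% oxygen (SD, n = 3), and Kcnt2 had 4 counts. The noncoding Kcnq1ot1, which silences its imprinted neighbours in cis, had 60.4, 34.1 and 47.1 CPM in 4% oxygen, against 57.8, 39.2 and 36.8 CPM in 20% oxygen, spread over 83437 bases. It runs antisense to Kcnq1, and 3.99% of the Kcnq1 exon bases overlap it, so the few Kcnq1 counts are uncertain. Other members also overlap antisense genes. Among the expressed ones are Kcnk1 (8.01% of exon bases), Kcnab3 (5.79%), Kcnj9 (4.43%), Kcnab1 (3.64%) and Kcnq5 (3.40%). Among those not expressed are Kcnj6 (5.81%), Kcnk2 (14.4%) and Kcnj3 (31.1%). Strand use is not stated, so their counts may be affected too.

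Replicate 1 in 20% oxygen held the highest of the 6 values for Kcnh4, Kcnc1, Kcnj14, Kcnk3, Kcnk6 and Kcnab3, and the lowest for 6 others, Kcnq5, Kcnh6, Kcns2 and Kcne1l among them. Together that made 12 of the 30 expressed members (40%), beside 51.0% of all expressed genes. Replicate 2 in 20% oxygen was the extreme library for 43.3% of the members, beside 36.6% of all expressed genes. Without replicate 1 in 20% oxygen the log2 fold change was 0.42 for Kcnq5 and 0.99 for Kcne1l.

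Of 11 clusters of members within 500 kb of each other, 6 held no expressed member and 5 held both expressed members and members that were not. On chromosome 3, Kcna3, Kcna2 and Kcna10 were not expressed while Kcnc4, within the same stretch (107036162 to 107458898), was. The Shaker trio Kcna5, Kcna1 and Kcna6 on chromosome 6 (126532551 to 126740674) held 0 expressed members of 3. The Kcnj16 and Kcnj2 pair on chromosome 11, the Kcne2 and Kcne1 pair on chromosome 16 and the Kcnj5 and Kcnj1 pair on chromosome 9 held 0 of 2 each.

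The region around a gene's start was examined for the core letters of the hypoxia response element, either ACGTG or the variant form GCGTG, on both strands, in RefSeq windows of 300 bases (GRCm38.p6) from 250 before to 50 after the start. A window was found for 62 of the 86 members, and Kcnk3 is among those without one. The letters occurred in 11 of 19 expressed members (57.9%) and 21 of 43 members that were not expressed (48.8%), beside 50.4% of all 17534 genes with a window. The number of CpG steps had a median of 19.0 in the windows of expressed members, 9 in those not expressed and 14.0 over all genes. The windows below belong to the members whose groups separated, or that had an unadjusted p under 0.05, and whose RefSeq start is the deposited gene boundary. They are written from 5′ to 3′ on the gene's strand, with capitals marking each match on either strand, and neighbouring matches may overlap.
Kcnq5, chr1:21961893-21962192, minus strand: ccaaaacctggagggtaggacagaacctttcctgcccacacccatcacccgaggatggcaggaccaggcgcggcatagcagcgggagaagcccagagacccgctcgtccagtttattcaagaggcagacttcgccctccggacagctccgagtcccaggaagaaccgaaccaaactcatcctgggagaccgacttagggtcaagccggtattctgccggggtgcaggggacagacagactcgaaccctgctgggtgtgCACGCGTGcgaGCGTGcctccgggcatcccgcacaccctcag
Kcnab2, chr4:152477500-152477799, minus strand: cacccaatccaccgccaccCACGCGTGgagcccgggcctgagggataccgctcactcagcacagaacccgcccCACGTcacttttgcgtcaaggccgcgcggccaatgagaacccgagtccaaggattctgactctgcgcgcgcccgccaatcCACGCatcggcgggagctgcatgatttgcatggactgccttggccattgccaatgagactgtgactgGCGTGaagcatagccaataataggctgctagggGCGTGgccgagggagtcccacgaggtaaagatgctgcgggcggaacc
Kcne1l, chrX:142306149-142306448, minus strand: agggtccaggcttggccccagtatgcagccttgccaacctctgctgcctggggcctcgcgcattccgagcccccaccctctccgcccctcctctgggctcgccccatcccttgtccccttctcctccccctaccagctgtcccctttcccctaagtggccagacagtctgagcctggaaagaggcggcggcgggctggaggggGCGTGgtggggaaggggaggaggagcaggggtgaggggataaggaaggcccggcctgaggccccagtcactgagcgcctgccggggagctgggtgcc
The window of Kcnab2 held 6 matches, that of Kcnq5 held 3 and that of Kcne1l held 1. Among other members whose groups separated, Kcnh6 held 1 match in a window that starts from another position than the deposited boundary, and Kcnh2 and Kcnh1 held 0, though that of Kcnh2 lies 22013 bases from the deposited gene boundary. A match is a description of the letters and not a bound site.

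Genes that work with these channels were also compared. Of 14 channel partners outside the Kcn names 8 were tested. At an unadjusted edgeR p under 0.05, 1 was higher in 4% oxygen, Dpp6, beside 3.01% of all genes tested. In the other direction 1 was lower, Sgk1, a kinase that regulates channel delivery, beside 1.42% of all genes. Sgk1 had 63.1, 119 and 69.3 CPM in 4% oxygen, against 211, 218 and 109 CPM in 20% oxygen, with overlapping groups. Its log2 fold change was -1.10 (SE 0.33), the edgeR adjusted p being 0.803. The HCN channels, which carry the depolarising pacemaker current, had 3 of 4 genes expressed, and Hcn2 had 89.0, 112 and 123 CPM in 4% oxygen, against 74.8, 93.4 and 61.2 CPM in 20% oxygen. The sodium-potassium pump, which builds the potassium gradient, had 5 of 7 subunit genes expressed. Its 5 tested members had a median log2 fold change of -0.02. The 6 tested cation-chloride cotransporters had a median of 0.28, and in the HCN, pump and cotransporter lists 0 genes had an unadjusted p under 0.05. After adjustment 0 genes of these lists were called by edgeR.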

How the data were processed

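RNA was sequenced from 6 libraries of N1E115 cells, 3 at 4% and 3 at 20% oxygen. Different library kits are labelled: the design text has a strand-specific kit for total RNA depleted of rRNA, the extraction protocol an mRNA kit. TopHat2 2.0.6, Bowtie, HTSeq and mm10 come from the submitters' processing notes; annotation, counting mode and strand use are not stated. The authors deposited raw counts per gene, all of them even numbers, and RPKM values per kilobase of the deposited gene length, per the file headers. Counts were tested in R 4.3.3 with edgeR 4.0.16 (filterByExpr with a minimum count of 10 and minimum total of 15, TMM scaling, quasi-likelihood test, two-sided, no covariate, Benjamini-Hochberg adjustment over 14979 genes), with standard errors from the log2 fold change and the F statistic. Counting error covers only part of the spread, and the common biological coefficient of variation was 0.359. RPKM served only to compare levels between genes. Alternatives were a replicate block, DESeq2 1.42.0, limma-voom (limma 3.58.1), RLE scaling, no filter on low counts, halved counts, and each library left out. The fit was tested on simulated data. Within a group, chi-square values per degree of freedom between libraries ran from 121 to 512, so none was a copy. Deviations from the group means correlated at 0.285, 0.465 and 0.233 between libraries numbered 1, 2 and 3. The main test nevertheless did not pair libraries by number, and its p-values and standard errors leave such a pairing out. The replicate block, which takes the numbers as pairs, was fitted only as an alternative. The labels do not say what a number marks. Members, lists and the rule for named genes were chosen with earlier results of these data known. The rule took the 8 tested members with the lowest p in each direction, the 3 highest by RPKM in each class, and 11 fixed members; other members named were chosen after their values were seen. All 86 members matched GENCODE M21. A few members and list genes are not reported by name here.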

Additional observations from a re-analysis of the deposited data

How the results depend on the processing

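Adjusted calls of members were 0 in each direction under the 12 alternative fits, so the replicate block changed no adjusted call. At an unadjusted p under 0.05, the 3 members higher in 4% oxygen became 8 with the replicate block, 6 with DESeq2, 5 with limma-voom, and 1 to 7 when each library was left out (1 without 4% oxygen replicate 3, beside 1.49% of all genes, and 7 without 20% oxygen replicate 2, beside 2.61%). The 0 lower members became 0 to 1, the 1 being Kcnd3 without 20% oxygen replicate 3. The median log2 fold change of voltage-gated members, 0.32, was 0.46 with counts halved, where 2 fewer members were tested, and 0.31 to 0.47 with a library left out (0.47 without 20% oxygen replicate 1). That of accessory members, 0.21, ran from -0.21 to 0.25 with a library left out, below 0 without 4% oxygen replicate 1 (-0.21) or 20% oxygen replicate 2 (-0.20). The inward rectifier median, 0.20, ran from 0.027 to 0.62 and the two-pore median, -0.41, from -0.54 to -0.17. Of 26 named members with a test, 22 kept their direction throughout. Many of the 26 were named for a low p in these same libraries, which favours a kept direction. The count therefore does not measure stability. Among members outside that rule, Kcnh4 ran from -0.39 to 0.23, Kcnc1 from -0.24 to 0.999 and Kcnj14 from -1.20 to 0.70. Of the named members, Kcnk3 turned to -0.011 with DESeq2 and -0.012 with RLE scaling, and ran from -0.26 to 0.56 with a library left out. Over the same fits Kcnj12 ran from -0.23 to 0.60, Kcnu1 from -0.20 to 0.24 and Kcnq1ot1 from -0.15 to 0.31. Of members that kept their direction, Kcnh2 ran from 0.21 to 0.43, Kcnc4 from 0.24 to 0.59, Kcnh6 from 0.51 to 1.15, Kcns2 from 0.61 to 1.43, Kcnj9 from 0.17 to 1.26, Kcnk5 from -0.53 to -0.05, Kcnk12 from -0.86 to -0.25 and Kcnab1 from -0.62 to -0.04. The causes were not tested. Expressed members numbered 28 to 30 with a library left out. With counts halved 43 of the 45 members could still be tested. Members at 0 counts are bounded only by the floor of 3 counts per library, which may be too low because all counts are even.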
